A study of Mus musculus with 16 samples.

Results

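Homologous recombination, Fanconi and checkpoint genes were followed in mouse erythroid progenitors, as a set of 37 genes named by symbol: 13 recombination genes, 9 Fanconi genes and 15 genes of damage signalling. All 37 were present among the 15386 genes of the RNA-seq table and the 13490 genes of the m6A table, and all 37 passed the filter on low counts in both, so no member was left out. RNA-seq compared 3 libraries of bone marrow CFU-E, the late committed erythroid progenitors that form small red cell colonies, from control mice with 3 libraries of CFU-E Kit-lo cells from Mettl3-deficient mice, a CFU-E population with low surface Kit. Per the methods, the mice were adult C57BL/6 animals of both sexes, and the deficient animals were Mettl3 fl/fl EpoR Cre/-, with a floxed Mettl3 removed by an EpoR-tdTomato-Cre allele that is active in erythroid cells and also in other cells that use the Epo receptor gene. The alleles of the control mice that gave these libraries were not stated in the labels, which read only Control, and the labels do not say whether replicates were separate animals, so p-values measure the spread between these samples. The m6A data, by SLIM-seq, came from control CFU-E only, with 2 immunoprecipitated (IP) libraries and 2 of input RNA. The labels call the cells erythroid progenitors. Control means of 8 listed erythroid markers ran from 10.8 CPM (counts per 1000000 of the scaled library total) for Zfpm1 to 958 CPM for Klf1. In Kit-lo cells these 2 were at 29.5 and 1444 CPM, and 4 of the 8 markers, both of these included, were called higher there and 0 lower.

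Mettl3 is the catalytic subunit of the complex that writes N6-methyladenosine (m6A), a mark on mRNA that affects stability, splicing and translation. Homologous recombination repairs a double-strand break by copying the sister chromatid: the MRN complex senses and trims the ends, BRCA1, PALB2 and BRCA2 prepare the ends for strand exchange, and mediators such as XRCC2, XRCC3 and RAD54 assist it. The Fanconi pathway, named for an inherited marrow failure, unhooks cross-links between DNA strands, and ATM, ATR and their partners signal damage and stalled forks to the cell cycle. CFU-E divide fast, so their DNA is copied often, and breaks and stalled forks in dividing cells are what these pathways handle.

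Totals ran from 17429262 to 21329242 counts per RNA-seq library and from 19421059 to 37142742 per SLIM-seq library. The gate for Kit was visible in the RNA, since Kit, the receptor for stem cell factor, was 598 CPM ± 47.1 (SD, n = 3) in control and 55.2 CPM ± 12.4 in Kit-lo libraries (log2 fold change -3.44, edgeR adjusted p = 4.31e-07). Mettl3 itself was 123 CPM ± 7.43 in control and 117 CPM ± 9.52 in those labelled as Mettl3-deficient, a log2 difference of -0.07 (SE 0.10, adjusted p = 0.634), so the gene total did not check the labels, and the table does not show which exons its reads came from. The paper reports that Mettl3 mRNA, by qRT-PCR, and protein, by Western blot, were absent from erythroid cells of the deficient mice. Late erythroid genes were higher in Kit-lo libraries (9 of 12 passed the test, summed level 976 to 1028 CPM in control and 3983 to 5889 CPM in Kit-lo), and 3 of 4 early progenitor genes tested, Kit included, were lower. Macrophage markers summed to 22.7 to 27.7 CPM in control and 13.2 to 17.1 CPM in Kit-lo libraries, granulocyte markers to 25.8 to 39.2 and 16.1 to 24.8 CPM, and lymphoid and megakaryocyte markers to at most 6.57 and 16 CPM in any library. Within these lists the macrophage genes Cd163 (13.5 to 6.36 CPM) and C1qa (1.3 to 0.342 CPM) and the granulocyte gene Mpo (19.6 to 5.01 CPM) fell, and Ngp (0.178 to 1.82 CPM), Ighm (0.611 to 3.07 CPM), Gp9 (1.42 to 3.52 CPM) and Itga2b (2.68 to 8.24 CPM) rose. Adgre1, a defining macrophage marker, was at 0.108 CPM in control and 0 in Kit-lo, too low in both to be tested, and Cd68 and Csf1r were at 4.27 and 0.717 CPM in control and 4.66 and 0.896 CPM in Kit-lo. Mettl3 genotype, the Kit gate and these marker shifts all differ together between the groups. No control Kit-lo library and no Mettl3-deficient library outside the Kit-lo gate was among the CFU-E samples. Their parts in the results on repair genes were not tested and cannot be told apart here. In bulk samples, fewer cells of a type and less RNA per cell cannot be told apart either.

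In control CFU-E the members lay between percentiles 18.8 and 87.3 of all tested genes by level per kilobase of exon. Per kilobase of exon, the mean RNA-seq level ran from 0.587 CPM per kb for Rad51c to 40 CPM per kb for Nbn, and 26 of 37 lay above the median of all tested genes, 4.93 CPM per kb. The MRN genes Nbn, Rad50 and Mre11a held ranks 1, 2 and 4 on this scale, with 40, 31.6 and 24.5 CPM per kb, and Xrcc3, a mediator of strand exchange, was rank 3 at 28.6. The library ranges of Rad50 (29.7 to 32.6) and Xrcc3 (27.9 to 29.9) overlapped, so their order is not beyond the spread. At the low end stood Rad51c, Fancf (1.18, with libraries from 0.481 to 1.66) and Fancm (2.62). Exon length here is the union over all annotated transcripts, which retained introns can inflate, as for Atr, with 23629 bases against 8102 in its main transcript. The lengths were equal for Nbn (2533 bases) and Fancf (1691 bases). They differed for Rad54l (7706 against 3025), Blm (8777 against 4770) and Rad51c (4384 against 1632). The order of members, at the top and at the bottom, therefore holds for this length only.

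**Figure D1:**
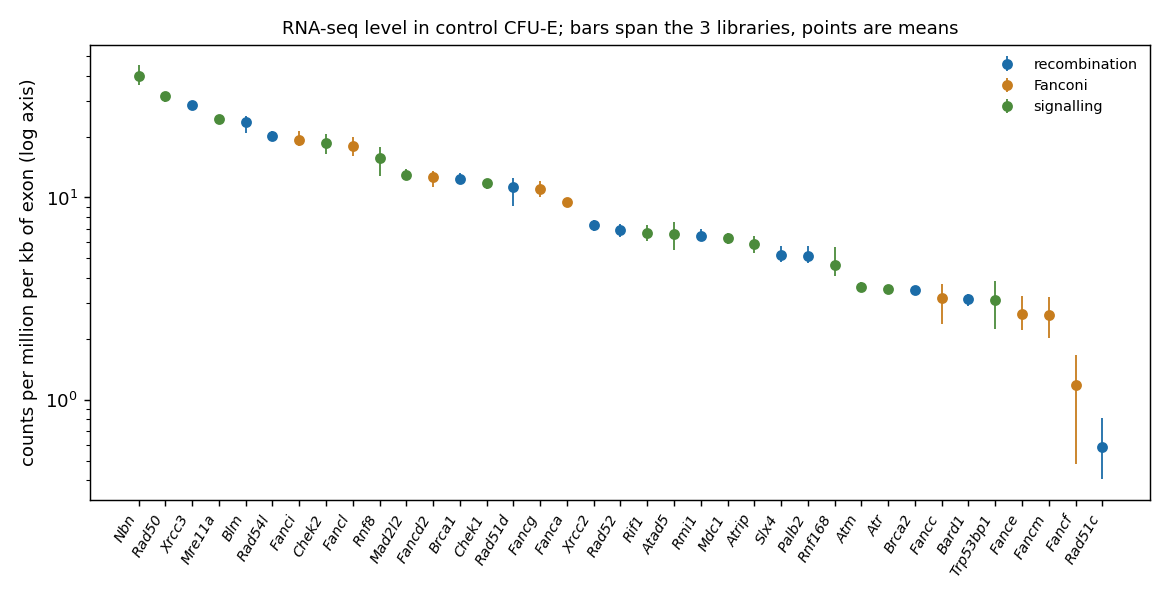
RNA-seq level of each of the 37 genes in control CFU-E, in CPM per kilobase of exon on a log axis, ordered from high to low and coloured by subgroup; points are means and bars span the 3 libraries. Exon length is the union over all annotated transcripts. On this scale Nbn and Rad50 lead at 40 and 31.6 CPM per kb, and Rad51c is lowest at 0.587.

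In Kit-lo Mettl3-deficient CFU-E, 4 of 13 recombination genes, 1 of 9 Fanconi genes and 4 of 15 signalling genes rose, and 1 signalling gene fell. At a fold of at least 1.5 and an adjusted p below 0.05 (edgeR quasi-likelihood test, Benjamini-Hochberg over 11979 genes), 9 members rose: Palb2, Brca2, Rad51c, Rmi1, Fancm, Mdc1, Rnf168, Mad2l2 and Atad5. Only Rad50 fell. Among all genes tested 12.1% rose and 9.83% fell, 22% in either direction, beside 27% of the members, and the median log2 fold change was 0.17 for members and 0.01 for all genes. The study singled out 7 members from these same samples as upregulated (Brca1, Brca2, Rad51c, Mdc1, Rnf168, Mad2l2 and Atad5). Values of these 7 are therefore not independent evidence. Here 6 of the 7 passed, and Brca1 did not (log2 0.27, edgeR adjusted p = 0.0993). Without the 7 picked members 3 of 30 rose and 1 fell, with a median of 0.01. Taking out genes that were picked for their change lowers such a count by construction, so it is not set against the share of all genes. With the adjusted p alone and no fold threshold, 13 members were higher and 3 lower, beside 17.6% and 16.9% of all genes.

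**Figure D2:**
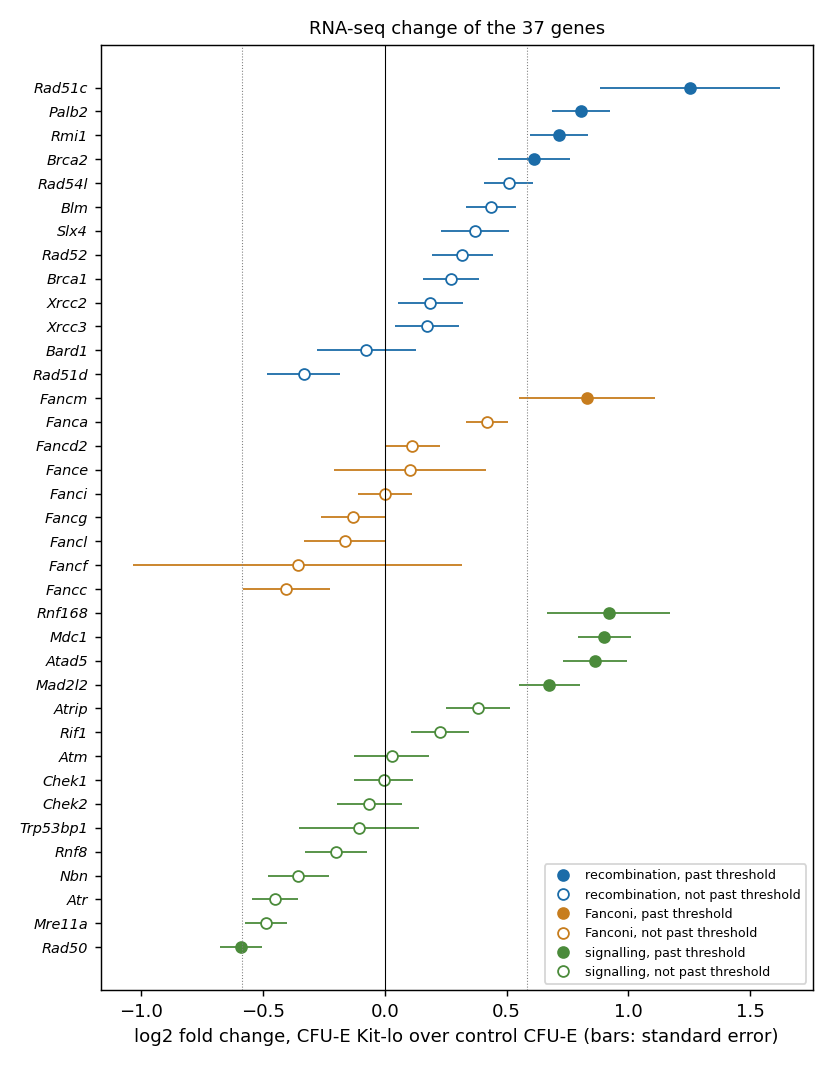
Log2 fold change of the 37 genes, CFU-E Kit-lo over control CFU-E, by subgroup and in falling order; bars are standard errors, filled points passed a fold of 1.5 and an adjusted p of 0.05, and dotted lines mark that fold. Rad51c has the largest rise at 1.25 and Rad50 the largest fall at -0.59.

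The recombination genes leaned upward as a group: 11 of 13 had a log2 fold change above 0, beside 50.6% of all genes, 4 passed the test, and the median was 0.37. In 9 of 13 all Kit-lo libraries lay above all control libraries, and in none of the 13 did all lie below. Among all genes tested 23.5% were separated upward and 24% downward. The log2 values of the 13 ran from -0.33 for Rad51d to 1.25 for Rad51c. The lean was not particular to recombination genes. Of 25 listed S-phase genes, 21 had a log2 value above 0 and 4 below. In 16 of the 25 all Kit-lo libraries lay above all control libraries, and in 3 all lay below.

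In the BRCA complex, Palb2 and Brca2 rose and their partners did not pass the test. Palb2 (chr7:122107262-122132985 of GRCm38, the mm10 build, minus strand), which joins BRCA1 to BRCA2, was 34.8, 36.3 and 42.4 CPM in control replicates 1 to 3 and 69.9, 66.7 and 61.8 CPM in Kit-lo replicates 1 to 3. The lowest Kit-lo library thus stood well above the highest control, and the log2 fold change was 0.81 (SE 0.12, adjusted p = 0.000605). Brca2 (chr5:150522630-150570329, plus strand), which acts on resected single-stranded DNA, was 48.5, 48 and 46.6 CPM in control and 56.9, 75.7 and 86.2 CPM in Kit-lo. Its controls were tight and its Kit-lo libraries spread, with no overlap, and the fold was 1.53 (log2 0.61, SE 0.15, adjusted p = 0.00925); without Kit-lo replicate 3 the log2 value was 0.49, and with upper quartile scaling 0.57, both under the fold threshold. Brca1 (chr11:101488764-101551955, minus strand), a ubiquitin ligase and scaffold, was 113, 104 and 99.3 CPM in control and 118, 149 and 116 CPM in Kit-lo. Its groups did not overlap either, but the log2 difference of 0.27 (SE 0.12, adjusted p = 0.0993) did not pass. Bard1, the obligate partner of BRCA1, had overlapping groups at 17.8 CPM ± 1.28 and 16.9 CPM ± 4.28 (log2 -0.08, adjusted p = 0.814).

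Among the mediator genes Rad51c, Rad51d, Xrcc2 and Xrcc3, which assist strand exchange, Rad51c alone passed. Rad51c (chr11:87376645-87404954, minus strand) was 3.54, 2.4 and 1.78 CPM in control and 6.86, 7.62 and 4.02 CPM in Kit-lo replicates. The groups were separated by a narrow gap at low level, and the log2 fold change of 1.25 carried a large error (SE 0.37, adjusted p = 0.0248). That call was lost without control replicate 2 (adjusted p = 0.0765) or 3 (0.0989), or without Kit-lo replicate 1 (0.0529) or 2 (0.0848), with log2 values of 1.04 to 1.20. Rad51d, Xrcc2 and Xrcc3 had log2 values of -0.33, 0.19 and 0.17, with overlapping groups.

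The genes that act during or after strand exchange, Rad52, Rad54l, Blm, Rmi1 and Slx4, were each higher in every Kit-lo library than in any control library, although 1 of the 5 passed the fold threshold. Rmi1 (chr13:58402248-58411148, plus strand), a subunit of the BLM dissolvasome that untangles double Holliday junctions, was 46, 40.9 and 40.4 CPM in control and 78.5, 65.9 and 64.6 CPM in Kit-lo, a log2 fold change of 0.71 (SE 0.12, adjusted p = 0.00127). Blm, the helicase of the same complex, was 208 CPM ± 20.9 and 281 CPM ± 27.9 (log2 0.44, adjusted p = 0.00818), under the fold threshold. Rad54l, a DNA-dependent motor of strand exchange, was 164, 147 and 153 CPM in control and 233, 236 and 191 CPM in Kit-lo (log2 0.51, SE 0.10, adjusted p = 0.0033), also short of that fold; without Kit-lo replicate 3 its log2 value was 0.62 and it passed. Rad52, which anneals single strands, and Slx4, a nuclease scaffold, stood at 0.32 and 0.37 with adjusted p of 0.0751 and 0.0639. Exons of other genes on the opposite strand cover 15.4% of the exonic bases of Rad54l (Lrrc41), 5.02% of Rmi1 (Hnrnpk) and 5.64% of Palb2 (the pseudogene Gm16326). Further members had such overlaps, among them Fanca (10.5%, Zfp276), Fancm (5.51%, Gm47870), Fanci (16%, Polg) and Trp53bp1 (15%, Tubgcp4). Exons of Gm28043 on the same strand cover 13.2% of Rnf8. Counting by strand was not stated, so reads in these stretches cannot be assigned.

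**Figure D3:**
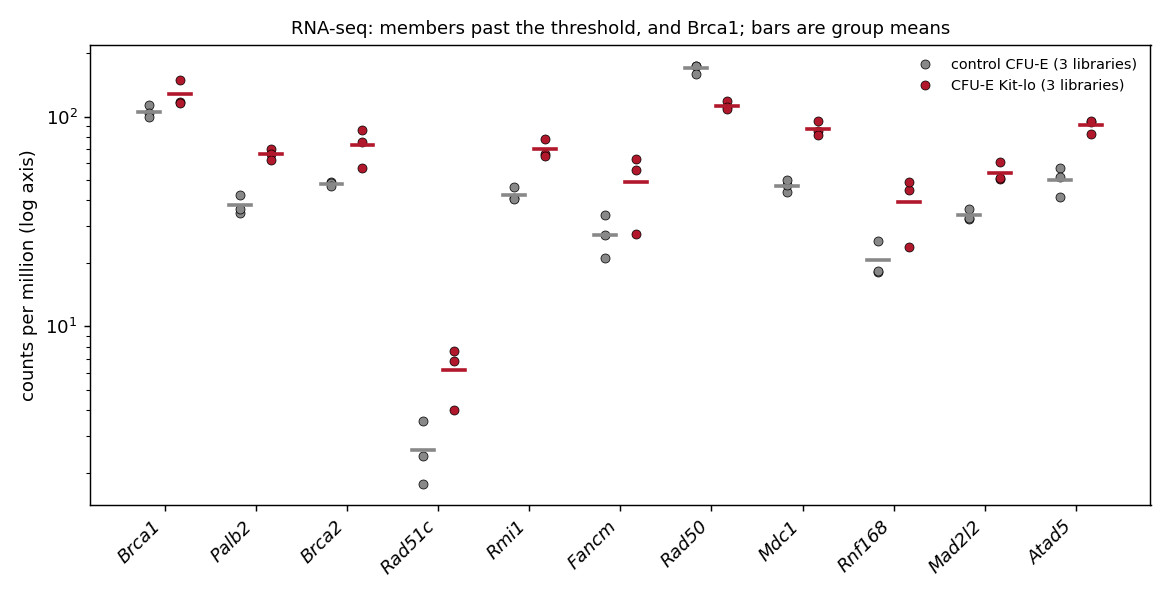
RNA-seq level in each library, in CPM on a log axis, of the 10 members that passed the test and of Brca1; grey points are the 3 control CFU-E libraries, red points the 3 CFU-E Kit-lo libraries and bars the group means. The groups overlap for Fancm and Rnf168, where Kit-lo replicate 1 lies among the controls, and for no other gene drawn.

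The Fanconi genes showed little shared direction: 5 of 9 had a log2 fold change above 0, the median fold was 1, and Fancm alone passed. Fancm (chr12:65075603-65132058, plus strand), the translocase that anchors the core complex to DNA, was 27.2, 33.8 and 21.2 CPM in control and 27.7, 55.6 and 62.6 CPM in Kit-lo. Kit-lo replicate 1 lay among the controls while the other two stood above them, and the log2 value of 0.83 (SE 0.28) had an adjusted p of 0.0422 by edgeR. The call was lost without control replicate 1 (adjusted p = 0.117) or 3 (0.17) without Kit-lo replicate 2 (0.12) or 3 (0.105), and with upper quartile scaling (0.0523). Fanca, a core subunit, was 83.6 CPM ± 0.627 in control and 112 CPM ± 4.45 in Kit-lo, separated and with an adjusted p of 0.00415 but a log2 value of only 0.42. The other core genes, Fancc, Fance, Fancf, Fancg and Fancl, ran from -0.40 to 0.10 with overlapping groups, and Fancf was below 3 CPM in every library. Fancd2 and Fanci, the clamp pair that the core complex ubiquitinates, were 101 and 111 CPM in control and 109 and 111 CPM in Kit-lo.

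Damage signalling genes were mixed, with 7 of 15 above 0 and 8 below, 4 that rose and 1 that fell. In each of the 3 MRN genes every Kit-lo library lay below every control library, as for 24% of all genes tested, and Rad50 passed the test. Rad50 (chr11:53649519-53707319, minus strand), the ATPase that tethers broken ends, was 174, 175 and 160 CPM in control and 118, 112 and 108 CPM in Kit-lo. Its log2 fold change was -0.59 (SE 0.08, adjusted p = 0.000511), a 1.5-fold fall that sits at the threshold; without control replicate 1 or 2 or Kit-lo replicate 2 or 3 it was -0.57, -0.57, -0.56 and -0.55 and fell short of that fold, with adjusted p of at most 0.0047. Mre11a, the nuclease subunit, was 141, 145 and 149 CPM in control and 96.8, 109 and 105 CPM in Kit-lo (log2 -0.49, SE 0.09, adjusted p = 0.00179), so it was lower but under the fold threshold. Nbn, which recruits ATM, was 101 CPM ± 11.8 and 79.3 CPM ± 10 (log2 -0.35, adjusted p = 0.0505).

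The apical kinase Atr was likewise lower without reaching the fold, at 83.5 CPM ± 2.41 in control and 61.1 CPM ± 2.87 in Kit-lo (log2 -0.45, SE 0.09, adjusted p = 0.00436). Its partner Atrip, which brings ATR to coated single strands, stood on the other side, at 42.3 CPM ± 4.01 and 55.2 CPM ± 7.31 (log2 0.38, adjusted p = 0.0477); exons of Trex1 on the same strand cover 16% of its exonic bases. Atm, Chek1 and Chek2, the break kinase and the effector kinases, had overlapping groups and log2 values of 0.03, 0.00 and -0.06.

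The chromatin response and end protection genes were mixed, with Mdc1, Rnf168 and Mad2l2 up. Mdc1 (chr17:35841515-35859670, plus strand), the reader of phosphorylated H2AX, was 43.5, 47.2 and 49.7 CPM in control and 85.3, 95.4 and 81.6 CPM in Kit-lo, a log2 fold change of 0.90 (SE 0.11, adjusted p = 0.00017) with widely separated groups. Rnf168 (chr16:32277459-32301434, plus strand), a ubiquitin ligase for H2A, was 18.2, 25.5 and 18.4 CPM in control and 24, 44.6 and 48.9 CPM in Kit-lo. As for Fancm, Kit-lo replicate 1 lay within the control range (log2 0.92, SE 0.25, adjusted p = 0.0183), and the call was lost without control replicate 1 (0.0782) or 3 (0.0862) or Kit-lo replicate 2 (0.0614). Rnf8, the ligase that acts before it, and Trp53bp1, which binds the mark it makes, had log2 values of -0.20 and -0.11 with overlapping groups.

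Mad2l2 (chr4:148130384-148145699, plus strand), the shieldin and polymerase zeta subunit that limits end resection, was 32.5, 36.4 and 32.8 CPM in control and 61, 50.4 and 50.9 CPM in Kit-lo, a log2 value of 0.68 (SE 0.12, adjusted p = 0.00221). It stayed separated, but without Kit-lo replicate 1 the value of 0.58 was under the fold threshold. Rif1, upstream of shieldin, was 69.7 CPM ± 6.68 and 81.5 CPM ± 9.32 (log2 0.23, adjusted p = 0.176). Atad5 (chr11:80089400-80135794, plus strand), which unloads the PCNA clamp, was 56.9, 41.3 and 51.4 CPM in control and 82.3, 94.6 and 95.5 CPM in Kit-lo (log2 0.86, SE 0.13, adjusted p = 0.000756), with every Kit-lo library above every control.

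Because many replication and repair genes carry E2F sites, promoters of 300 bases from RefSeq (GRCm38.p6, 250 bases before and 50 after each start) were searched for TTCGCGC and TTGGCGC on both strands, which do not overlap each other in these windows. A promoter entry was found for 31 of 37 members, and 6 held a motif in at least 1 entry: Brca1, Fancf, Fancm, Mad2l2, Rad51c and Rmi1. By promoter that was 22.9% of 35, with Rad51c and Rmi1 counted in 2 entries each, beside 3.89% of all 32851 entries. Those entries are not limited to tested genes, so the sets are unlike. By gene it was 19.4%, beside 8.17% of the 9175 tested genes with an entry and 7.72% of those that rose. Of the 9 members that rose 4 held a motif, and of the other 22 it was 2, but Mad2l2, Rad51c and Rmi1 each have a second entry and so a longer stretch searched. Windows of 30 bases are shown for Brca1 and the members that rose, 5′ to 3′ on the gene's strand, with the motif or its reverse complement in capitals.
Fancm, chr12:65075485-65075514, plus strand: ccgtcacacacTTCGCGCaatacgcatgcg
Rad51c first site, chr11:87404476-87404505, minus strand: tttccagcgctTTCGCGCctcttgctctac
Rad51c second site, chr11:87405004-87405033, minus strand: cgcgcgcgtggGCGCCAAccactccctacc
Rmi1 first site, chr13:58402187-58402216, plus strand: cggtggtgcgaGCGCGAAgcgattggcccg
Rmi1 second site, chr13:58402492-58402521, plus strand: ctcctttctcgTTCGCGCactctgtggtga
Rmi1 last site, chr13:58402613-58402642, plus strand: cccgagggagtTTGGCGCgattggaggagg
Mad2l2, chr4:148130853-148130882, plus strand: cccccgaggccTTGGCGCcgccgccagggc
Brca1, chr11:101551916-101551945, minus strand: gctagcgctagGCGCCAAgcggccggtttc
Rmi1 had matches in both of its entries, with the motif on either strand. These matches are letters in a window and were not measured as binding.

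Of 52 other genes listed for the same pathways 51 were tested, 5 rose and 1 fell, 11.8% beside 22% of all genes, with a median log2 fold change of 0.12. Without the fold threshold 20 of 51 had an adjusted p below 0.05, beside 34.5% of all genes. In 22 of 51 every Kit-lo library lay above every control library, beside 23.5% of all genes, and 34 of 51 had a log2 value above 0, beside 50.6%. The largest rises were in Tonsl, which acts with MMS22L at stalled forks (99.2 CPM ± 12 in control, 208 CPM ± 23.8 in Kit-lo, log2 1.07, adjusted p = 9.19e-05), the end-resection nuclease Exo1 (106 and 191 CPM, log2 0.85, adjusted p = 9.18e-05) and the Fanconi core partner Faap100 (114 and 183 CPM, log2 0.69, adjusted p = 0.00131). The fall was in H2afx, the histone variant whose phosphorylation MDC1 reads. H2afx was 335, 324 and 309 CPM in control and 50.3, 40.5 and 34.5 CPM in Kit-lo, 7.72-fold lower (log2 -2.95, SE 0.13, adjusted p = 4.52e-07), a change far larger than that of any member. S-phase genes summed to 9167 to 9928 CPM in control and 11000 to 11700 CPM in Kit-lo, with 3 of 25 past the test and a median of 0.25, and 2 of 20 mitotic genes rose, with a median of 0.15; their part in the results was not tested.

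In control CFU-E, m6A IP over input measured which transcripts the antibody enriched. By edgeR (adjusted p below 0.05, log2 above or below 0, 11447 genes tested), 7 members were enriched in the IP, namely Rmi1, Blm, Rad54l, Chek1, Bard1, Atad5 and Rif1, and Fance was depleted. Among all genes 7.9% were enriched and 7.86% depleted, 15.8% in either direction, beside 21.6% of the members, and the median log2 ratio was 0.52 for members and 0.06 for all genes. A ratio above 0 was found in 25 of 37 members and 53.2% of all genes. Over all genes 904 were enriched and 900 depleted, but upper quartile scaling gave 1451 and 754 and scaling by library size only 934 and 608. These are ratios relative to the scaled library total and not stoichiometries of the mark. With 2 libraries a group the calls were fragile: without input replicate 1, input replicate 2, IP replicate 1 or IP replicate 2, the number of members enriched was 1, 2, 1 and 11, while Fance stayed depleted each time.

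**Figure D4:**
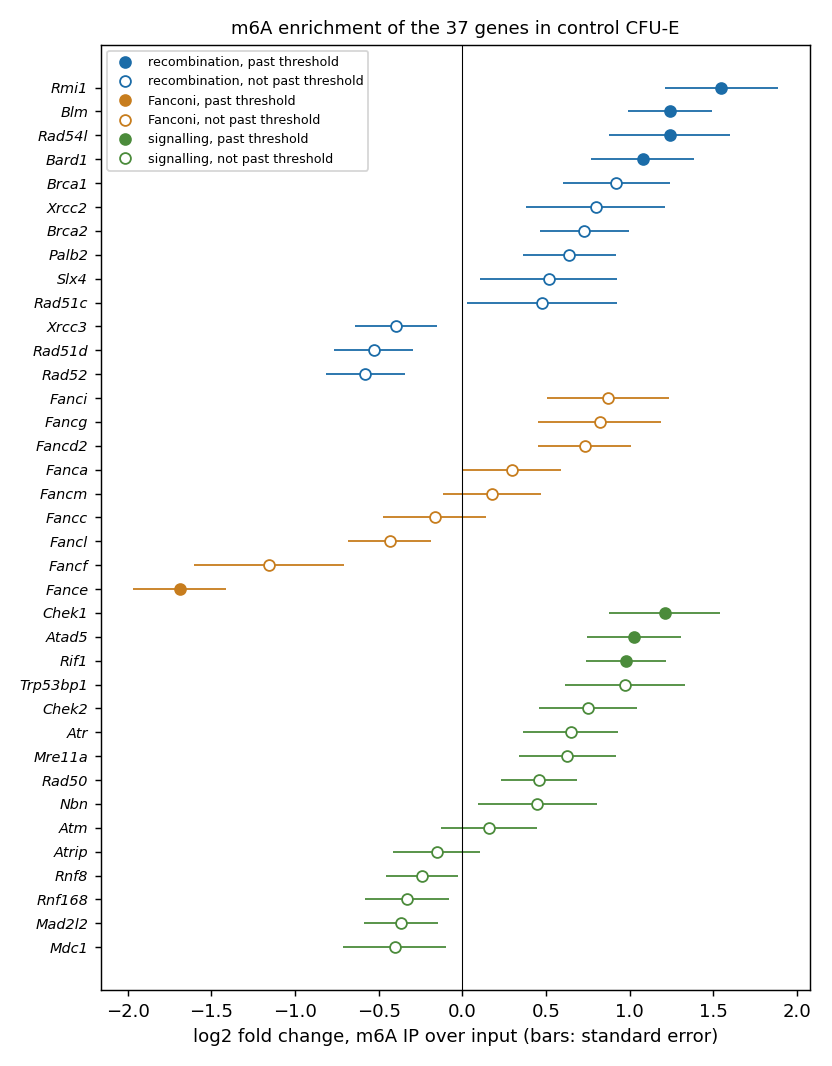
Log2 ratio of m6A IP over input in control CFU-E for the 37 genes, by subgroup and in falling order; bars are standard errors and filled points had an adjusted p below 0.05. Rmi1 is highest at 1.55 and Fance lowest at -1.69.

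Recombination genes had the highest median ratio, 0.73, against 0.46 for signalling and 0.18 for Fanconi genes, and 10 of 13 had both IP libraries above both inputs, beside 32.2% of all genes. Rmi1 was 14.8 and 11.2 CPM in input replicates 1 and 2 and 50.4 and 25.5 CPM in IP replicates 1 and 2, a log2 ratio of 1.55 (SE 0.34, adjusted p = 0.0131). The IP libraries were far apart, though both lay above both inputs, and without IP replicate 1 the ratio was 0.95 and did not pass. Blm was 10.1 and 10.3 CPM in input and 24.9 and 23.5 CPM in IP (log2 1.24, SE 0.25, adjusted p = 0.00897), though it too was lost without input replicate 1 (0.0941). Rad54l was 25 and 16.6 CPM in input and 67 and 31.1 CPM in IP (log2 1.24, SE 0.36, adjusted p = 0.0425), with 0.56 (adjusted p = 0.31) without IP replicate 1, 1.54 (0.0724) without input replicate 1 and 0.97 (0.131) without input replicate 2. Bard1 was low, at 3.31 and 3.6 CPM in input and 7.19 and 7.39 CPM in IP (64 to 300 counts), with a log2 ratio of 1.08 (SE 0.31, adjusted p = 0.0405).

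Both Brca1 and Brca2 had IP libraries above inputs without passing, although with upper quartile scaling they passed, at 1.05 and 0.85. Brca1 was 5.29 and 3.54 CPM in input and 8.46 and 8.34 CPM in IP (log2 0.92, SE 0.32, adjusted p = 0.0747), and Brca2 was 22 and 18.9 CPM in input and 40 and 27.7 CPM in IP (log2 0.73, adjusted p = 0.0889). Brca2 passed without IP replicate 2, at 0.97 (adjusted p = 0.0353). Rad51c, at 2.12 and 1.12 CPM in input and 2.16 and 2.41 CPM in IP (20 to 90 counts), gave 0.48 (SE 0.45, adjusted p = 0.503), an error about as large as the value. Rad51d, Xrcc3 and Rad52 had both IP libraries below both inputs, as did 28.7% of all genes, at -0.53, -0.40 and -0.58, none past the test.

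Fance, the core subunit that contacts FANCD2, was 44.6 and 38.4 CPM in input and 15.4 and 10.3 CPM in IP, a log2 ratio of -1.69 (SE 0.28, adjusted p = 0.00276). Fancf stood low at 2.82 and 2.81 CPM in input and 1.61 and 0.854 CPM in IP (log2 -1.15, adjusted p = 0.106). The ID2 pair Fancd2 and Fanci was at 0.73 and 0.87 with adjusted p of 0.097 and 0.131.

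Among signalling genes, Chek1, the effector kinase of ATR, was 10.2 and 6.18 CPM in input and 23 and 14.9 CPM in IP (log2 1.21, SE 0.33, adjusted p = 0.0348). Rif1 was 23.6 and 22.7 CPM in input and 50.1 and 41.1 CPM in IP (log2 0.98, SE 0.24, adjusted p = 0.0219), with groups well apart. Atad5 was 7.36 and 6.13 CPM in input and 14.7 and 12.8 CPM in IP (log2 1.03, SE 0.28, adjusted p = 0.0334). Chek1, Rif1, Atad5 and Bard1 each lost their call without either input replicate or without IP replicate 1, with adjusted p from 0.0519 to 0.238. The MRN genes stood between 0.45 and 0.63 and none passed. Mdc1, Rnf168 and Mad2l2, which rose in the RNA-seq, had ratios of -0.40, -0.33 and -0.37 with adjusted p of 0.398, 0.39 and 0.287.

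**Figure D5:**
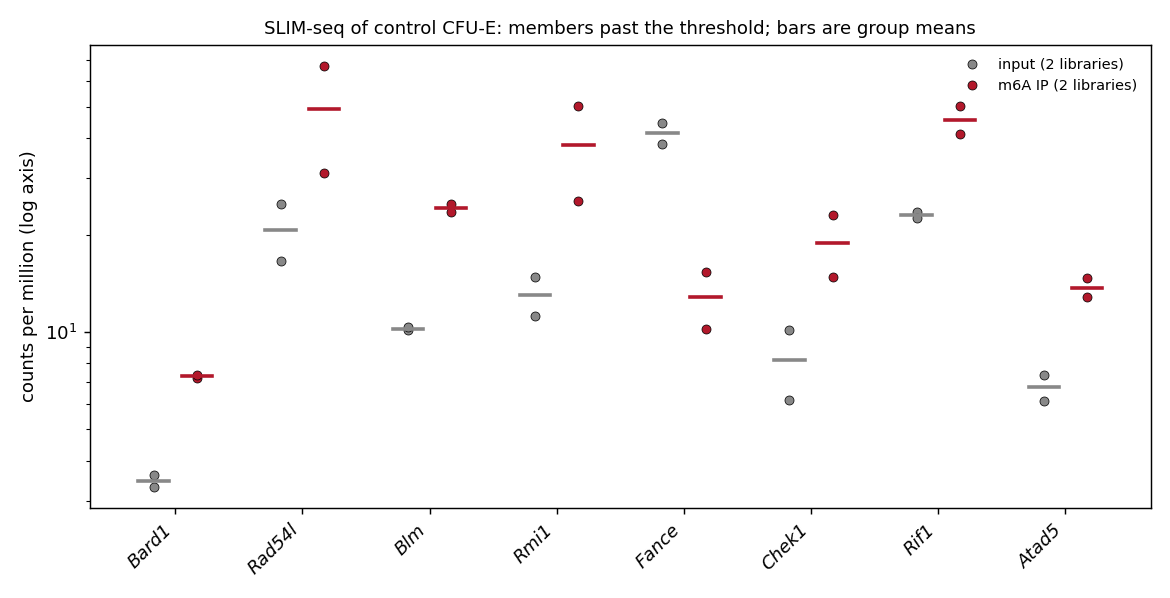
SLIM-seq level in each library, in CPM on a log axis, of the 8 members past the test; grey points are the 2 inputs, red points the 2 IP libraries and bars the group means. Rmi1 and Rad54l have widely spaced IP libraries, at 50.4 and 25.5 CPM and 67 and 31.1 CPM, and Fance is the gene with IP below input.

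Set side by side, Rmi1 and Atad5 were the members that passed in both comparisons. Their log2 values were 0.71 and 0.86 in Kit-lo over control and 1.55 and 1.03 in IP over input. Both IP calls were lost without IP replicate 1. The share of all genes that passed in both comparisons was not counted, so no excess of members is claimed. The other genes enriched in the IP had RNA-seq values of 0.44 (Blm), 0.51 (Rad54l), 0.00 (Chek1), -0.08 (Bard1) and 0.23 (Rif1), and Fance stood at 0.10. Over the 37 members Spearman's rho of the RNA-seq change with the IP ratio was 0.125, and it was -0.033 over the 10773 genes tested in both, given as descriptions across genes that share libraries. The m6A data hold no Mettl3-deficient sample, so a change in the mark was not measured.

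Members had long transcripts, with a median of 4210 bases for the main coding transcript (GENCODE M21) against 2920 for all genes tested in the m6A data. Across members the IP ratio had a Spearman's rho of 0.405 with transcript length and 0.268 with the longest internal exon; across 11441 genes these were 0.327 and 0.146. The 9 members with an internal exon of at least 1000 bases, among them Brca2 with an exon of 4809 bases, Brca1 with 3315 and Rif1 with 3090, had a median ratio of 0.73, and 8 of 9 lay above 0. For all 656 genes with such an exon the median was 0.39 and 455 lay above 0, against a median of 0.04 for the rest. Of these 9 members 2 were enriched, Rif1 and Atad5, beside 92 of the 656 genes. The 28 members without such an exon had a median of 0.46 and 5 enriched, beside 812 of all 10785 genes without one. Rmi1, the most enriched member, has 2 exons in its main transcript and so no internal exon. The count of GGACT, a core of the m6A consensus, in the main transcript had a rho of 0.0258 with the ratio across members and 0.176 across all genes, and GGACT per kilobase had -0.297 and -0.0692.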

How the data were processed

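RNA-seq (Smart-seq2, 3 libraries per CFU-E group) and m6A SLIM-seq (control CFU-E, 2 IP libraries and 2 of input) were read from 2 gene tables of expected counts deposited by the authors, who trimmed reads with fastp 0.23.4, quantified them against mm10 with Kallisto 0.48.0 and summed transcripts to genes with tximport; the labels also list the GRCm39 build, with no role given. The deposited values were whole numbers, so rounding changed nothing. Kallisto shares reads among similar transcripts, counting by strand was not stated, and neither was the use of the molecular identifiers in the SLIM-seq primer. ProE libraries were not analysed here.

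Genes were filtered with filterByExpr, scaled by TMM and tested by edgeR 4.0.16 (R 4.3.3) with the quasi-likelihood test and no block, with a fold of at least 1.5 and an adjusted p below 0.05 for RNA-seq, and an adjusted p below 0.05 for IP over input. These are the study's thresholds without its minimum TPM, which was not applied to the counts. P-values were Benjamini-Hochberg adjusted over all genes tested. The SE is the log2 fold change divided by the root of F. CPM values, counts per 1000000, use TMM-scaled library sizes. Alternatives were DESeq2 1.42.0, its size factors, library size only, upper quartile scaling, other filters and thresholds, a replicate block and leaving out each library. Gene models were GENCODE M21 (GRCm38, the same build as mm10), matched by symbol for 99.9% of genes, and promoters were from RefSeq (GRCm38.p6).

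The members and gene lists were chosen with earlier results of these data known. All members were accounted for: library values are given for members past a threshold in that comparison and for those the study picked, with some others added after their values were seen, and other pathway genes by the 3 largest rises and falls among those called. The deposited counts give depth, and precision is that of counting and of 2 or 3 libraries.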

Additional observations from a re-analysis of the deposited data

How the results depend on the processing

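In the RNA-seq, Palb2, Rmi1, Mdc1 and Atad5 kept their call under all 14 alternatives, and members higher were 9 with DESeq2 and 7 with upper quartile scaling (2 of the unpicked), where Brca2 and Fancm lost their calls. Leaving out 1 library gave 6 to 8 members higher, 0 to 1 lower, and 0 to 1 lower among the members the study did not pick. With library size only, members lower and unpicked members lower were both 0, as Rad50 fell under the fold. With no fold threshold, members lower were 3, unpicked members 7 higher and 3 lower, and all genes lower 2024. The RNA-seq replicate numbers did not pair the samples (correlations of deviations 0.034, -0.017 and -0.072, 1 of 3 best with its own number); with the replicate block members higher were 8, since Fancm had an adjusted p of 0.0557. For IP over input, Fance kept its call under all 12 alternatives. Upper quartile scaling gave 12 members (adding Brca1, Brca2, Fancd2, Chek2 and Trp53bp1) and 1451 genes enriched; it shifted the median of all genes by 0.13 and library size only by 0.16 on the log2 scale, and the latter gave 934 genes enriched and 608 depleted. The 2 m6A numbers correlated at 0.205, which 2 pairs cannot establish; with the replicate block 14 members were enriched, adding those same 5 with Fancg and Mre11a, and 3 depleted, adding Rad51d and Rad52 (11 and 3 of the unpicked), with 1783 and 1755 of all genes. Leaving out 1 library gave 1 to 11 members enriched, 1 to 9 of the unpicked, 164 to 1358 genes enriched and 427 to 968 depleted; the cause was not tested beyond the loss of a sample. Some members that were not called changed sign, so the counts of members above and below 0 hold for the reported fits only. In the RNA-seq these were Chek1 with library size only (0.0456), Fanci with upper quartile (-0.0367), no filter (-0.0181) and the block (-0.000389), and Atm with upper quartile (-0.0111); without 1 library they were Chek1 (-0.0733 to 0.105), Fanci (-0.0876 to 0.0891), Atm (-0.0727 to 0.181), Fance (-0.236 to 0.361), Chek2 (-0.153 to 0.0463), Trp53bp1 (-0.362 to 0.125), Bard1 (-0.238 to 0.105) and Fancf (-1.03 to 0.0898). For IP over input, Atrip was 0.00457 with library size only, and without 1 library Atrip ran from -0.344 to 0.0377, Fancc from -0.452 to 0.165, Atm from -0.0639 to 0.399 and Nbn from -0.0751 to 0.945.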

Other observations

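In the m6A data, the listed other genes of the same pathways were called about as often as all genes. Of 51 tested, 3 were enriched and 5 depleted in the IP, 15.7% beside 15.8% of all genes, with a median log2 ratio of -0.02. The largest enrichments were in Fancb, a Fanconi core subunit, at 0.485 and 1.07 CPM in input and 5.23 and 1.41 CPM in IP (log2 2.15, SE 0.65, edgeR adjusted p = 0.0493), in Rpa3, a subunit of the single-strand binding complex, at 57.1 and 112 CPM in input and 171 and 220 CPM in IP (log2 1.21, adjusted p = 0.0253), and in the RAD54 relative Rad54b, at 7.67 and 6.86 CPM in input and 17.2 and 11.5 CPM in IP (log2 0.98, adjusted p = 0.0494). Fancb rests on few reads and its IP libraries differ widely.

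The largest depletions were in Rmi2, at 23.8 and 26.7 CPM in input and 5.44 and 4.82 CPM in IP (log2 -2.29, SE 0.27, adjusted p = 0.000319), in Etaa1, an activator of ATR, at 10.3 and 13.2 CPM in input and 4.6 and 2.61 CPM in IP (log2 -1.68, adjusted p = 0.0099), and in Usp1, which removes ubiquitin from FANCD2, at 71.6 and 75 CPM in input and 28.5 and 19.7 CPM in IP (log2 -1.60, adjusted p = 0.00231). RMI1 and RMI2 sit in 1 complex with BLM, and their transcripts lay on opposite sides: Rmi1 (1.55) and Blm (1.24) were enriched and Rmi2 was depleted. The difference between them was not tested.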
